A study of Mus musculus with 10 samples.

Results

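Achilles tendons of mice carrying only a CreER allele of Mkx were compared with those of mice carrying only a floxed allele of Mkx. The comparison was defined by genotype and took 7 of the 10 libraries of the series: 3 labelled Mkx-CreER/+ and 4 labelled Mkx-flox/+. The other libraries, labelled Mkx-CreER/flox, enter only where a fit of all 10 is named. The comparison asks what goes with the CreER allele alone. In Mkx-CreER/+ mice, 1 copy of Mkx carries CreER, a Cre recombinase that enters the nucleus once it binds tamoxifen, and no floxed copy is labelled. In Mkx-flox/+ mice, 1 copy is flanked by loxP sites and no Cre is present. Mice of both groups received tamoxifen at 20 mg/kg when 6 weeks old, and their tendons were collected 4 weeks later, so the drug is common to both sides. Neither group is untreated or wild type. The series text writes the floxed control without the wild-type allele, so its number of floxed copies is not settled here. No source used here says whether the inserted CreER sequence disrupts the gene. Each library is a separate sample of its genotype in the labels, which do not say that each is a separate animal, so p-values measure the spread between these samples. Library numbers are those of the count table's columns.

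Tendon is a tissue of aligned collagen fibrils made by sparse fibroblasts, the tenocytes. Mkx encodes Mohawk, a homeobox protein that binds DNA and promotes expression of type I collagen and small proteoglycans in these cells. Type I procollagen is made of chains from Col1a1 and Col1a2, is hydroxylated and folded in the endoplasmic reticulum, loses its propeptides after secretion, and is then cross-linked by lysyl oxidases. Cre recombinase can cut genomic DNA at sites that resemble loxP, which is why a Cre-only control is commonly examined for a DNA damage response.

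Total counts were 12801907 to 22656417 in Mkx-CreER/+ and 8680934 to 17792482 in Mkx-flox/+, at which 3 counts equal 0.127 to 0.361 CPM, that is counts scaled to the library's size, a limit that covers counting error only. The first principal component held 23.3% of the variance and did not separate the genotypes. All 7 libraries carried Y-linked counts. The tissue label was checked against tendon genes: Col1a1, Col1a2, Fmod, Tnmd, Scx and Mkx were detected in all 7 libraries.

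No gene passed the test across all genes. Of 15395 genes tested with edgeR's quasi-likelihood test, 0 (0%) had a Benjamini-Hochberg adjusted p under 0.05, and the smallest adjusted p was 0.106. An unadjusted p under 0.05 was reached by 1084 genes (7.04%), 512 of them higher in Mkx-CreER/+ (3.33%) and 572 lower (3.72%). The groups did not overlap for 441 genes that were higher (2.86%) and 608 that were lower (3.95%). The call depended on the tool: DESeq2 called 90 genes, 18 higher (0.161%) and 72 lower (0.642%) of 11214 with an adjusted p, and limma voom called 0. With no filter on low counts edgeR called 6 higher (0.0254%) and 23 lower (0.0974%), all of them among those of DESeq2. With a term for each library's muscle gene score it called 2, both lower (0.013%). A positive difference was found for 50.2% of all genes. Counts of list members below use an unadjusted p under 0.05 unless another rule is named, and each is to be read against the share of all genes under its rule.

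The promoters of 4 genes are shown, 2 of collagen chains and 2 of collagen-modifying enzymes, because most members of the fibrillar and folding lists described below had a negative difference. They are tested members of both lists with a small p and an entry in the RefSeq promoter table (GRCm38.p6). The window ran from 250 bases before to 50 after the start. They were chosen by p among the list members that do not share a chromosome with Mkx, and not by content. Lox shares it and was left out for that reason. Its DESeq2 adjusted p, 0.0205, was smaller than that of Loxl4, 0.02923. Col16a1 lies at chr4:130047590-130047889 (+ strand), Col11a2 at chr17:34038888-34039187 (+ strand), Adamts2 at chr11:50601835-50602134 (+ strand) and Loxl4 at chr19:42612757-42613056 (- strand). Capitals mark CCAAT, or ATTGG where it lies on the other strand, the box bound by NF-Y in many collagen promoters.
Col16a1: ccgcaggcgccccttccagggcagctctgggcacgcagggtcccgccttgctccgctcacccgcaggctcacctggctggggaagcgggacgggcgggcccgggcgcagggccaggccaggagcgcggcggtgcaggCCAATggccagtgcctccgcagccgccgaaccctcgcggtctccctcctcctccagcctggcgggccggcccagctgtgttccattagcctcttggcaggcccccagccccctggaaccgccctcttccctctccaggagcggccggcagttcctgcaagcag
Col11a2: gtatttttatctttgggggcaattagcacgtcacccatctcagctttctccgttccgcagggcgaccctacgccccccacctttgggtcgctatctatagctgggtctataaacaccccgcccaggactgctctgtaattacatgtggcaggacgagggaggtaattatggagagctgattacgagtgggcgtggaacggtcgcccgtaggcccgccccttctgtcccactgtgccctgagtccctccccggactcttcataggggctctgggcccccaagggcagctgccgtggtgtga
Adamts2: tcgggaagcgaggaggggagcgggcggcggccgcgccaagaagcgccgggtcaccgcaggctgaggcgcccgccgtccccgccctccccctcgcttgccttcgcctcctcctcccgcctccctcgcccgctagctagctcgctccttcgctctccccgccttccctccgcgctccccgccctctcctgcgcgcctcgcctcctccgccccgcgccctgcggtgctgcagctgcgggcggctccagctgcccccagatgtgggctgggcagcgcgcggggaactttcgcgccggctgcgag
Loxl4: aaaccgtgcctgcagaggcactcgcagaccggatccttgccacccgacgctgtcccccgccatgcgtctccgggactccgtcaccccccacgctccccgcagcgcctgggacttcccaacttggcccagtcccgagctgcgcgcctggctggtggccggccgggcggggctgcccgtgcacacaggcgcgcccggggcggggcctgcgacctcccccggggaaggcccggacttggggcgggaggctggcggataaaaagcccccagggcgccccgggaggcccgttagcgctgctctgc
CCAAT was the 1 motif searched, and 1 of these 4 promoters, that of Col16a1, held it. It was in 4 of 13 promoters of the fibrillar list (30.8%) and 7 of 23 of the folding list (30.4%), against 37.4% of all 32851 promoters, so it was not more frequent in either list. These counts describe letters in a window, not binding.

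Mkx itself was lower in the CreER carriers. Mkx (ENSMUSG00000061013, chr18:6934518-7004780, minus strand, GRCm38) stood at 91.7, 94.1 and 94.1 CPM in Mkx-CreER/+ 1, 2 and 4. It stood at 188, 178, 121 and 154 CPM in Mkx-flox/+ 1 to 4. The groups did not overlap, and the Mkx-CreER/+ mean was 58.2% of the Mkx-flox/+ mean. The log2 difference was -0.78 (SE 0.169, n = 3 and 4; edgeR adjusted p = 0.27, DESeq2 adjusted p = 0.009054). An exact two-sided permutation test over 35 splits gave p = 0.0571, where 0.0286 is the smallest possible. Counts per gene do not tell transcripts of the modified and unmodified copies apart.

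**Figure D1:**
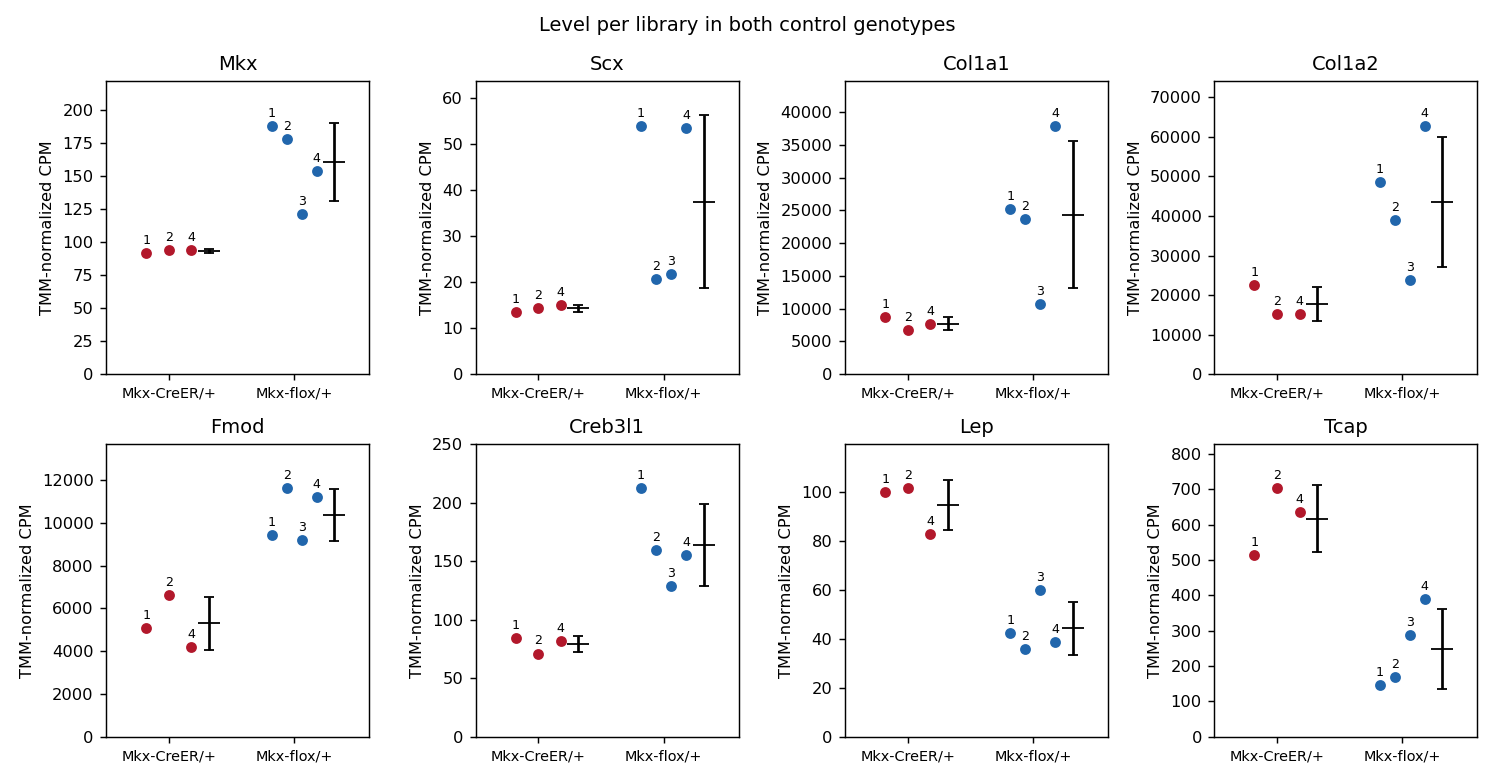
TMM-normalized CPM of 8 genes in each library of Mkx-CreER/+ (red) and Mkx-flox/+ (blue), numbered by column, with mean and SD in black beside the points. The groups do not overlap in any of the 8 panels. Mkx-flox/+ 3 is the lowest floxed library for Mkx, Col1a1, Col1a2, Fmod and Creb3l1, and the highest for Lep.

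Near Mkx the share of genes with a small p was close to that elsewhere. Within 5 Mb of Mkx, 3 of 39 genes tested had an unadjusted p under 0.05 (7.69%), against 7.09% on other chromosomes: Mkx, Fzd8, a Wnt receptor, and Cul2, a ubiquitin ligase scaffold. The groups did not overlap for 1 of the 39, Mkx. On chromosome 18 beyond 20 Mb the share was 5.44% of 349 genes.

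**Figure D2:**
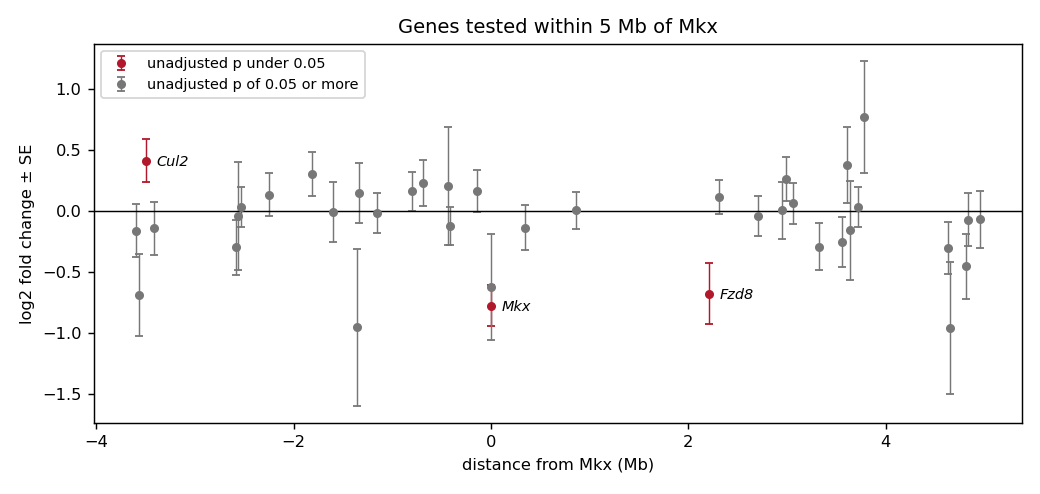
Log2 fold change ± SE (Mkx-CreER/+ over Mkx-flox/+) of the 39 genes tested within 5 Mb of Mkx, against distance from Mkx in Mb. The 3 red points have an unadjusted p under 0.05, and the others lie on both sides of 0.

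Fibrillar collagens had the lowest median of the 35 lists with all 7 libraries, but not without Mkx-CreER/+ 2 (-0.54) or without Mkx-flox/+ 1 (-0.607), when the histone list was lower (-0.605 and -0.679). The lists were written with earlier results of these data known, so this rank is only a description. Of 16 members tested, 9 had an unadjusted p under 0.05 and were lower, 0 were higher, while 8 lay wholly below the floxed libraries and 1 wholly above. Over all genes, 3.72% were lower and 3.33% higher at that p, while 3.95% lay wholly below and 2.86% wholly above. The median log2 difference was -0.66, against 0.001 over all genes. Col1a1, the main chain of type I collagen, stood at 8716, 6727 and 7681 CPM in Mkx-CreER/+ 1, 2 and 4. In Mkx-flox/+ 1 to 4 it stood at 25227, 23671, 10647 and 37934 CPM. All 3 CreER libraries lay below the lowest floxed library, and the floxed libraries spread widely among themselves. The difference was -1.66 (SE 0.361, edgeR adjusted p = 0.27).

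Col1a2, the partner chain, stood at 22655, 15188 and 15256 CPM against 48669, 39054, 23771 and 62822 CPM, a log2 difference of -1.30. The groups did not overlap. Col16a1, a collagen of fibril surfaces, stood at 31.7, 33.4 and 33.5 CPM against 58.6, 66.3, 54.9 and 82.0 CPM (log2 difference -0.99, SE 0.173, edgeR adjusted p = 0.138). Its CreER libraries were tightly grouped and all lower. Col11a2, a chain of type XI collagen, differed by -1.57 on the log2 scale, without overlap. Col3a1, the type III chain, overlapped between groups, at 3636, 2000 and 3141 CPM against 4082, 2569, 2172 and 5275 CPM. Col24a1 alone of the 16 had a positive difference, 0.42 on the log2 scale, and was the member that lay wholly above.

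Most genes that fold, trim and cross-link collagen had a negative difference too. Of 30 members tested, 21 had an unadjusted p under 0.05 and were lower and 1 was higher. The groups did not overlap for 16 that were lower and 1 that was higher, and the median log2 difference was -0.54. Over all genes, 3.72% were lower at that p and 3.95% were lower without overlap. Creb3l1 encodes a membrane-bound transcription factor that activates type I collagen genes in bone. It stood at 84.1, 71.1 and 81.7 CPM in Mkx-CreER/+ and at 212, 159, 129 and 155 CPM in Mkx-flox/+. No library overlapped, and the log2 difference was -1.05 (SE 0.179, edgeR adjusted p = 0.138).

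Adamts2, which removes the amino-terminal propeptide, stood at 626, 453 and 379 CPM against 1112, 926, 709 and 1032 CPM. Its groups did not overlap, and its log2 difference was -0.96. The cross-linking enzymes Loxl2, Loxl4 and Lox differed by -1.35, -0.96 and -0.74, all without overlap. Sparc, a collagen-binding matrix protein, differed by -1.25. The prolyl 3-hydroxylation genes P3h3, P3h2, P3h4 and Crtap differed by -0.82, -0.61, -0.56 and -0.60, and their groups did not overlap. The collagen chaperone Serpinh1 overlapped (-0.56). P4ha2, a prolyl 4-hydroxylase subunit, was 1 of 2 members with a positive difference and lay wholly above, at 25.3, 26.5 and 35.2 CPM against 23.3, 17.3, 20.0 and 20.1 CPM (0.52). DESeq2 called 5 fibrillar and 8 folding members, 13 of its 72 lower genes.

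**Figure D3:**
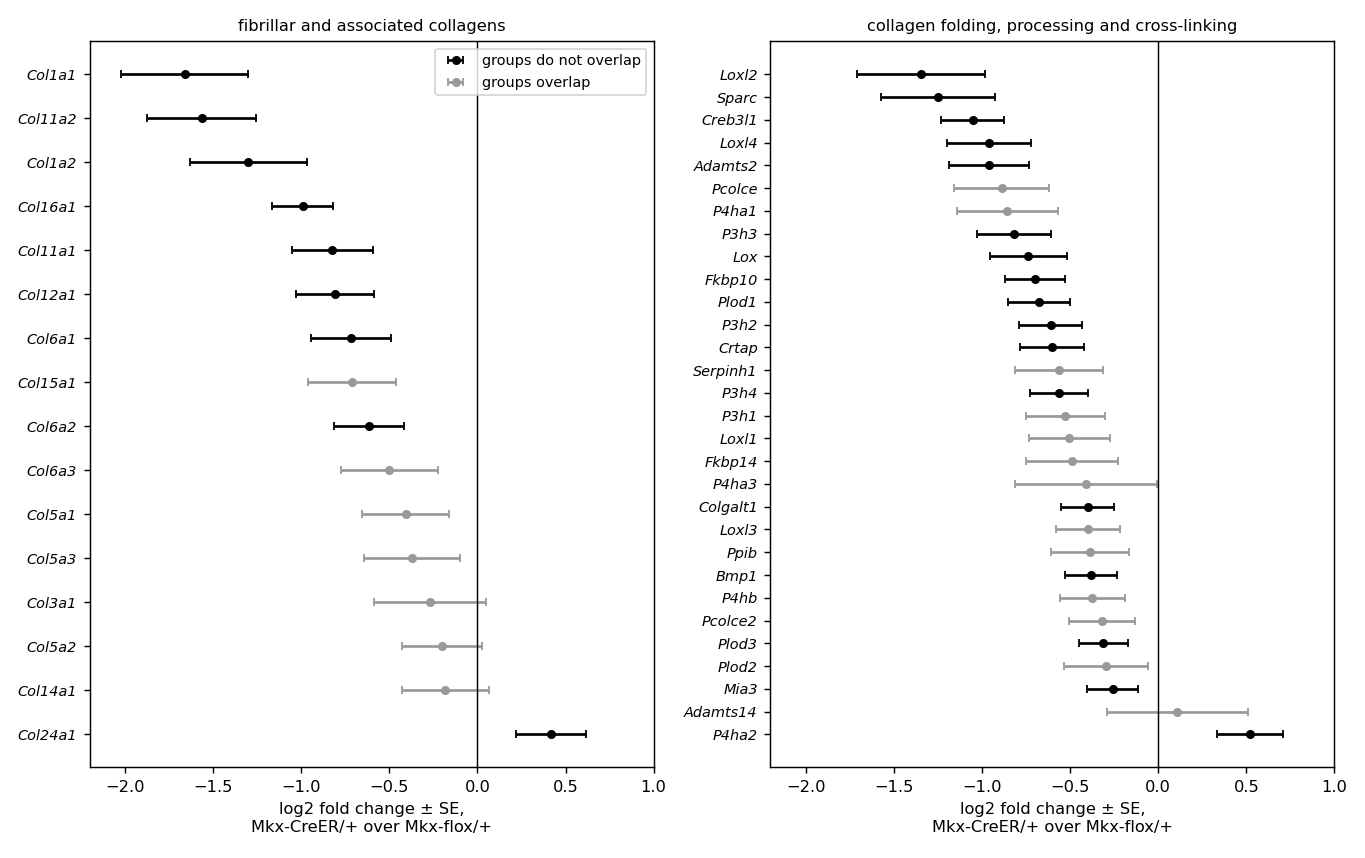
Log2 fold change ± SE (Mkx-CreER/+ over Mkx-flox/+) of the 16 fibrillar (left) and 30 folding (right) genes tested, black where the groups do not overlap and grey where they do. All but 1 of the 16 and 2 of the 30 lie below 0.

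Among tendon regulators and markers, 17 had a negative and 8 a positive difference. Of 25 tested, 11 had an unadjusted p under 0.05 and were lower, 0 were higher, and the median log2 difference was -0.40. The median was -0.254 without Mkx-CreER/+ 4 and -0.264 without Mkx-flox/+ 3, with 9 lower members in each case. The list holds Mkx, Col1a1 and Col1a2, so it is not separate from the results above. It also shares members, Fmod among them, with the proteoglycan list below. Scx, the scleraxis transcription factor, stood at 13.5, 14.4 and 15.0 CPM against 53.9, 20.6, 21.6 and 53.5 CPM (log2 difference -1.38, SE 0.363). The CreER libraries were close together and below all floxed libraries, which formed a low and a high pair. Tnmd, a membrane protein of mature tenocytes, overlapped at 346, 314 and 241 CPM against 586, 425, 341 and 584 CPM (-0.69). The injury-responsive factor Egr1 overlapped too, at 66.0, 29.7 and 67.0 CPM against 50.3, 38.2, 48.0 and 25.1 CPM.

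Among proteoglycans and other matrix genes, 11 of 37 were lower and 1 higher at an unadjusted p under 0.05 (median -0.40). Fmod encodes fibromodulin, a small proteoglycan. It stood at 5086, 6622 and 4199 CPM against 9448, 11611, 9215 and 11189 CPM, without overlap (log2 difference -0.97, SE 0.242). Kera, another small proteoglycan, overlapped (-0.63), and so did Dcn, decorin (-0.32). Aspn, asporin, was the member that was higher, by 0.56. Of 24 matrix-degrading enzymes and inhibitors, 7 were lower and 1 higher, with a median of -0.03; without Mkx-CreER/+ 2 or Mkx-flox/+ 2 the lower count was 3, and without Mkx-CreER/+ 4, Mkx-flox/+ 1 or Mkx-flox/+ 4 it was 4. Htra1, a secreted protease, stood at 358, 355 and 226 CPM against 625, 639, 568 and 555 CPM (-0.93).

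**Figure D4:**
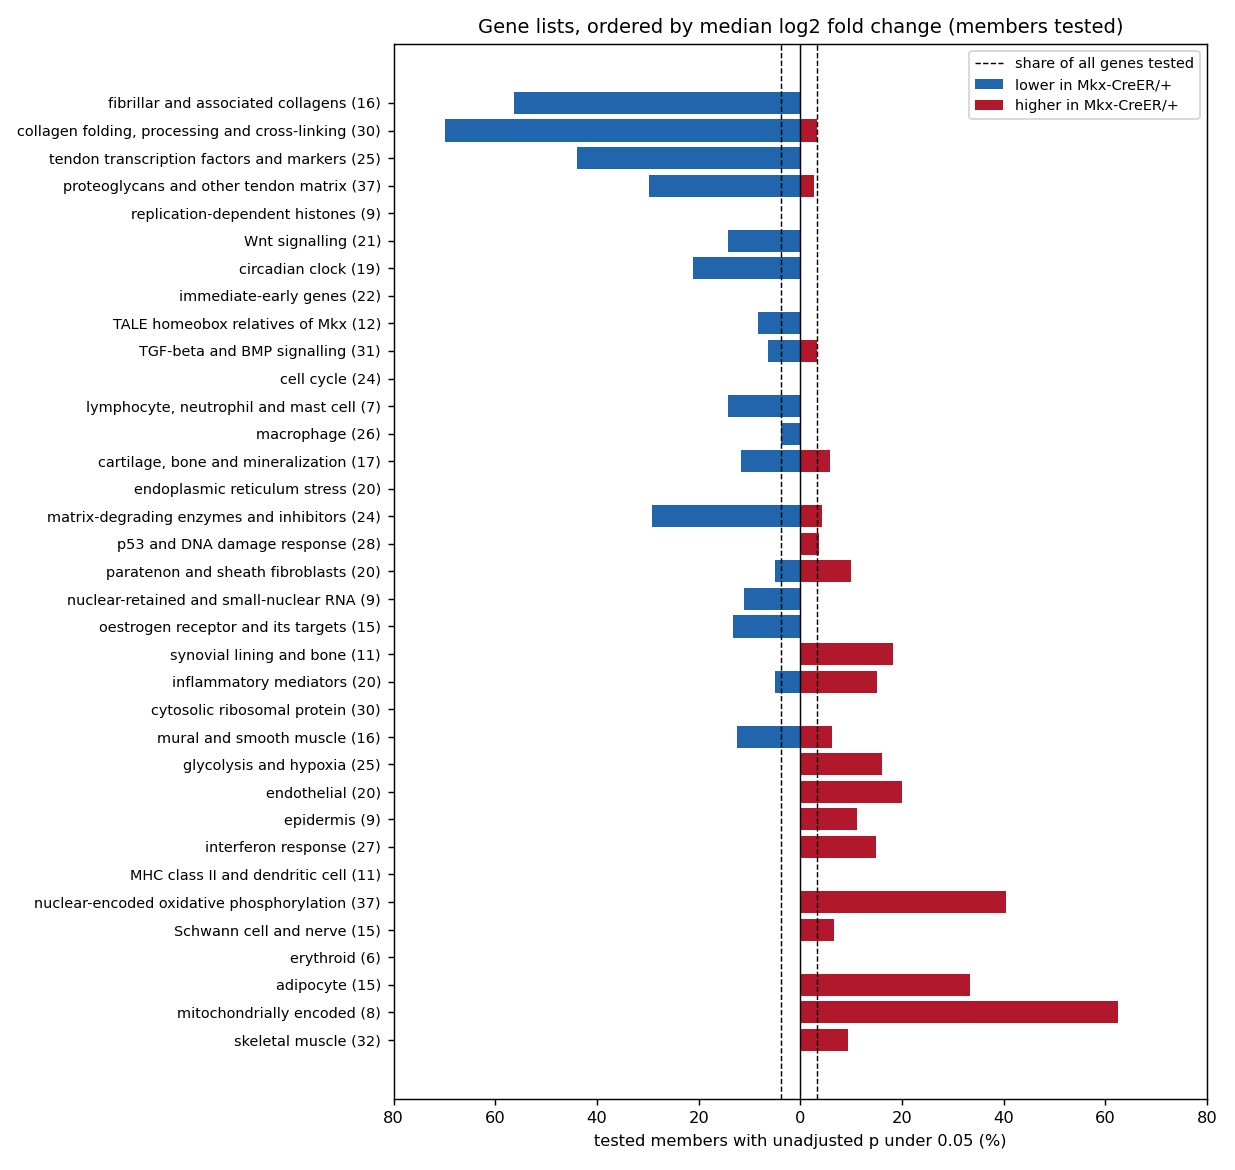
Share of tested members (in parentheses) with an unadjusted p under 0.05, lower (blue, left) or higher (red, right) in Mkx-CreER/+, for 35 lists ordered by median log2 fold change. Dashed lines mark the shares over all genes, 3.72% lower and 3.33% higher. The 4 lists at the top, collagens, collagen processing, tendon markers and proteoglycans, have the lowest medians.

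Genes known to respond to DNA damage showed no common direction. Of 28 p53 and DNA damage genes tested, 14 had a positive and 14 a negative difference (median 0.0). An unadjusted p under 0.05 was reached by 1, Phlda3, which was higher (0.58, edgeR adjusted p = 0.5152). The count of higher members was 2 without Mkx-flox/+ 4, and 3 with the muscle score in the model or a block on column numbers. The list held 0.0784%, 0.0799% and 0.0793% of counts in Mkx-CreER/+ against 0.0661%, 0.0749%, 0.0746% and 0.0632% in Mkx-flox/+, without overlap. The cause of that difference in share was not tested. Cdkn1a, the p21 cell cycle inhibitor, stood at 44.8, 34.1 and 38.9 CPM against 42.7, 54.0, 31.8 and 27.3 CPM. Mdm2, the p53 ubiquitin ligase, stood at 60.2, 49.7 and 61.2 CPM against 56.6, 56.0, 62.7 and 54.9 CPM. Both overlapped. Of 27 interferon response genes, 24 had a positive difference and 4 had an unadjusted p under 0.05, all higher (median 0.34). The count was 1 with the muscle score in the model and 1 without Mkx-CreER/+ 2. It was 2 without Mkx-flox/+ 1 or Mkx-flox/+ 2, 7 without Mkx-flox/+ 3, and 10 without Mkx-CreER/+ 4, when the median was 0.563. Rtp4, an interferon-induced gene, stood at 18.1, 19.5 and 11.3 CPM against 9.37, 6.27, 8.10 and 11.7 CPM, with overlap.

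CreER contains a ligand-binding part of the oestrogen receptor, so oestrogen-responsive genes were described too. Of 15 oestrogen-responsive genes tested, 0 were higher and 2 lower at an unadjusted p under 0.05 (median 0.06, and -0.129 without Mkx-CreER/+ 2). Pgr, the progesterone receptor, stood at 3.78, 2.85 and 1.10 CPM against 11.2, 10.7, 7.99 and 5.90 CPM (-1.82, SE 0.404, edgeR adjusted p = 0.27). All CreER libraries were lower. Esr1, the oestrogen receptor gene, overlapped (0.11).

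Most members of the energy metabolism, fat and muscle lists had a positive difference, but of the nuclear oxidative phosphorylation, adipocyte and muscle members 22, 10 and 29 did not reach an unadjusted p under 0.05. All 37 nuclear-encoded oxidative phosphorylation genes had a positive difference, 15 had an unadjusted p under 0.05, and the median was 0.40. Cox5b, a subunit of cytochrome oxidase, stood at 174, 158 and 138 CPM against 113, 83.5, 98.1 and 115 CPM (0.62), without overlap. When the model held the muscle score, the count was 7, and without Mkx-flox/+ 4 it was 28. Without Mkx-CreER/+ 1 it was 7 and without Mkx-flox/+ 2 it was 8. In 1 fit of all 10 libraries, with the Mkx-CreER/flox libraries included, it was 5. All 8 mitochondrially encoded genes tested had a positive difference, 5 with an unadjusted p under 0.05; that count was 1 without Mkx-CreER/+ 4, 2 without Mkx-flox/+ 2, 3 without Mkx-flox/+ 3 and 8 without Mkx-CreER/+ 2.

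Of 15 adipocyte genes all were positive and 5 had an unadjusted p under 0.05 (median 0.55). Lep, the fat hormone leptin, stood at 100.1, 102 and 83.0 CPM against 42.3, 36.0, 60.2 and 38.7 CPM (1.09, SE 0.184, edgeR adjusted p = 0.138). Its groups did not overlap. The adipocyte count was 3 without Mkx-CreER/+ 1 and 9 without Mkx-CreER/+ 4 or Mkx-flox/+ 3. With all libraries, all 32 muscle genes were positive (median 0.68), 3 had an unadjusted p under 0.05, and the other 29 did not. Without Mkx-CreER/+ 2, only 18 were positive, with a median of 0.577 and a count of 4. With the muscle score in the model 18 were positive. The muscle median was 1.049 without Mkx-flox/+ 4, with a count of 11, and 0.179 with the muscle score in the model. The count was 1 without Mkx-CreER/+ 4, Mkx-flox/+ 1 or Mkx-flox/+ 2, and 5 without Mkx-CreER/+ 1 or Mkx-flox/+ 3. Tcap, a sarcomere protein, stood at 514, 703 and 637 CPM against 148, 169, 289 and 390 CPM (1.31). Of 25 glycolysis and hypoxia genes, 4 were higher and 0 lower (median 0.31). That median was 0.0 with the muscle score in the model, -0.008 without Mkx-CreER/+ 2 and 0.165 without Mkx-flox/+ 2, and the count was 2 without Mkx-flox/+ 1 or Mkx-flox/+ 3. Hk2, a hexokinase of this list, differed by 1.17, without overlap.

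The libraries also differed in composition. Muscle genes held 3.73%, 9.08% and 7.05% of counts in Mkx-CreER/+ and 1.94%, 2.21%, 5.46% and 5.89% in Mkx-flox/+, with overlap. Adipocyte genes held 1.73%, 1.17% and 1.09% against 0.958%, 0.618%, 1.19% and 0.862%, and mitochondrially encoded genes 3.14%, 2.33% and 4.78% against 2.31%, 1.92%, 1.98% and 2.06%. Fibrillar collagens held 4.17%, 2.83% and 3.27% against 8.52%, 7.19%, 4.23% and 10.6%. Fewer cells of a type and less RNA per cell cannot be told apart in these bulk samples. With the muscle gene score in the model, 9 fibrillar and 22 folding genes were lower at an unadjusted p under 0.05, as were 3.64% of all genes. That score was computed from the same libraries. The part of muscle, fat and depth in the collagen differences was not tested.

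**Figure D5:**
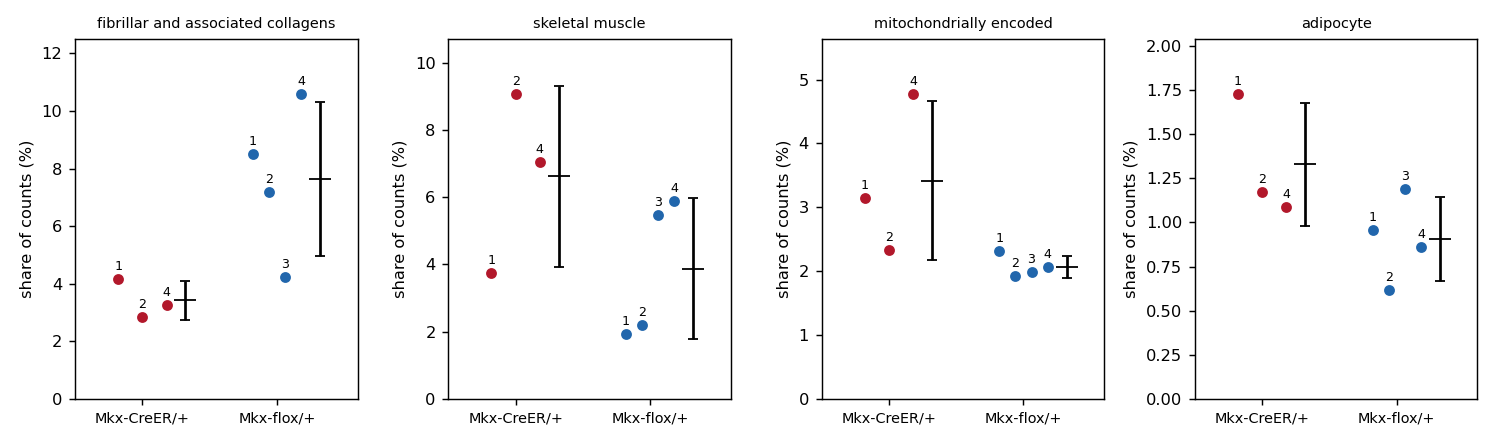
Share of each library's counts (%) held by 4 gene lists in Mkx-CreER/+ (red) and Mkx-flox/+ (blue), numbered by column, with mean and SD in black. Fibrillar collagen shares do not overlap between groups, narrowly (4.17% in Mkx-CreER/+ 1, 4.23% in Mkx-flox/+ 3). Nor do mitochondrially encoded shares (2.33% in Mkx-CreER/+ 2, 2.31% in Mkx-flox/+ 1). Muscle and adipocyte shares overlap.

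Except for Nr1d1 and the clock list, the genes of this paragraph were picked only among genes whose groups do not overlap. Their lack of overlap follows from that rule and is not a result. The 2 genes with the smallest p over the whole table were lower. Sema3b, a secreted guidance protein, stood at 44.7, 53.5 and 43.5 CPM against 101, 96.8, 88.7 and 139 CPM (-1.17, SE 0.179, edgeR adjusted p = 0.106). Pla2g5, a secreted phospholipase, stood at 35.3, 45.9 and 35.4 CPM against 78.0, 74.4, 79.8 and 81.4 CPM (-1.01, edgeR adjusted p = 0.106). Neither overlapped. Myo7a, an unconventional myosin, Unc5c, a netrin receptor, Ndufa4l2, Sdc3, a syndecan, Prex1 and Matn2, a matrilin, differed by -1.08, -1.28, -0.95, -0.93, -1.02 and -0.87, all without overlap. On the higher side, Kitl, the ligand of Kit, stood at 39.5, 36.0 and 30.1 CPM against 20.0, 19.8, 15.7 and 23.4 CPM (0.84). Penk, the enkephalin precursor, stood at 70.3, 61.7 and 67.1 CPM against 21.5, 48.7, 32.8 and 21.3 CPM (1.10). Both were higher in every CreER library. Zfp366, Tmem252, Pkhd1l1, Ndrg2, Hecw2 and Apol6 differed by 1.20, 1.31, 0.93, 0.89, 0.76 and 0.80, without overlap. Slc7a11, the cystine transporter, differed by -1.86 and Meg3, an imprinted noncoding RNA, by -0.91. Nr1d1, a clock repressor, stood at 240, 225 and 281 CPM against 462, 561, 325 and 451 CPM (-0.85); 4 of 19 clock genes were lower at an unadjusted p under 0.05 (1 without Mkx-CreER/+ 2, 2 without Mkx-CreER/+ 1 or Mkx-flox/+ 4), and the hour of collection is not stated in the labels.

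Of the other lists, immediate-early genes (22 tested), cell cycle (24), endoplasmic reticulum stress (20) and cytosolic ribosomal protein genes (30) each had 0 members with an unadjusted p under 0.05 when all 7 libraries were fitted. Without Mkx-CreER/+ 4, 6 ribosomal protein genes were higher. Immediate-early genes had 1 or 2 members past it without each library but Mkx-flox/+ 3, and endoplasmic reticulum stress genes had 2 without Mkx-flox/+ 1. Macrophage genes had 1 of 26, Cx3cr1, with a difference of -0.83. Endothelial genes had 4 of 20 higher (median 0.32), 1 without Mkx-CreER/+ 2 and 8 without Mkx-flox/+ 4.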

How the data were processed

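Achilles tendon RNA was sequenced by RamDA-seq. The authors deposited 1 table of unnormalized counts, with 32285 Ensembl genes as rows; per the submitters' processing notes the tools were fastp and STAR and the build mm10. Versions, counter, strand setting and multimapping: not given in the sources used here. Flox columns matched labels by genotype and number, CreER columns by genotype only. Members and lists were chosen with earlier results of these data known. The 7 libraries were fitted with edgeR 4.0.16 (R 4.3.3; filterByExpr, TMM, robust quasi-likelihood, Benjamini-Hochberg), with symbols from GENCODE vM21 (GRCm38), and the fit was tested on simulated data. Alternatives were DESeq2 1.42.0, limma 3.58.1 voom, other scalings and filters, a muscle score covariate, a block on column numbers and leaving out each library. Unadjusted p and overlap counts were added after 0 genes were called. Named genes were a fixed set, 12 in each direction by smallest p (average log2 CPM of at least 1, groups not overlapping), and 2 per list; other list members are named for their role after their values were seen. A choice of promoters by motif content was tried after the shares were seen and dropped.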

Additional observations from a re-analysis of the deposited data

Results flagged for a closer look

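In a group of 4, a library whose gap to its nearest neighbour exceeds Dixon's 95% critical share of the range stands apart. Of 133 values tested in Mkx-flox/+, 5 did so, and chance flags about 1 in 20. Igfbp4, a binding protein of insulin-like growth factors, stood at 225.75 CPM in Mkx-flox/+ 2, below 351.93 to 361.62 in the others. Scn7a, a sodium channel gene of Schwann cells, stood at 69.155 CPM in Mkx-flox/+ 3, above 40.228 to 43.543. Ncmap, a myelin gene, stood at 3.3724 CPM in Mkx-flox/+ 4, above 0.17118 to 0.58577. The proteoglycan list held 7.05% of counts in Mkx-flox/+ 4, and the macrophage list 0.307% in Mkx-flox/+ 3, each apart from the other 3 libraries.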

How the results depend on the processing

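The number of genes called was 90 with DESeq2, 29 with no filter on low counts, 2 with the muscle score as covariate (Sema3b and Col11a2) and 0 to 1 with 1 library left out; the cause was not tested. To look for pairing, each gene's group mean was first subtracted from its log2 CPM. What remained was correlated between Mkx-CreER/+ and Mkx-flox/+ libraries, so these values do not measure likeness of expression. Correlations for libraries of the same column number were 0.155, -0.069 and 0.042. Those between different numbers ran from -0.214 to 0.231. So few values cannot decide whether the column numbers pair the libraries. With a replicate block on those numbers, 84 genes were called, Mkx stood at -0.888, Cdkn1a at -0.03 and Mdm2 at 0.025. The differences of that fit rest on the 3 numbers found in both groups. Mkx-flox/+ 3, alone in its block, adds nothing to them. Mkx was -0.781 with DESeq2, and between -0.888 and -0.676 over all settings (adjusted p 0.009054 to 0.5924). With no filter, 836 genes were higher at an unadjusted p under 0.05 and Mdm2 was 0.002. With the muscle covariate Mdm2 was 0.033, Esr1 -0.018 and the oxidative phosphorylation count 7; it was 5 with all 10 libraries and 7 to 28 with 1 left out. Lower fibrillar members numbered 8 to 11 and folding members 14 to 24 over all settings. With 1 library left out, Cdkn1a lay between -0.121 and 0.211, Mdm2 lay between -0.059 and 0.077, Esr1 lay between -0.14 and 0.307 and Rps18 lay between -0.014 and 0.424. Of 1626 values of 96 named genes, 1528 kept direction and side of the threshold.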
